A study of Bos taurus with 24 samples.

Results

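Transcription factors of the trophectoderm, CDX2, EOMES, GATA2, GATA3, TFAP2C, TFAP2A, KLF5, DLX3 and ELF3, were followed as 9 genes in 24 single bovine early blastocysts. They were chosen by symbol, and all 9 of 9 were found among the 24621 genes of the exon count table. KLF5 is split over 2 rows of that table, of which the second holds 1 count over all embryos, so the first row was taken as KLF5 (what each row covers in the genome was not checked). Exon counts per embryo ranged from 3253051 to 9000447.

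The embryos fell into 3 groups of 8. In vivo derived blastocysts (5 male, 3 female) were flushed on day 7 after insemination from 3 superovulated Holstein cows, with semen of 1 Holstein bull. Blastocysts of the serum group (3 male, 5 female) came from oocytes matured with 20% fetal bovine serum, fertilized in vitro with semen of the same bull and cultured in SOF, a synthetic oviduct fluid, with 5% fetal bovine serum. Blastocysts of the serum-free group (5 male, 3 female) came from oocytes matured with EGF and no serum, and were cultured in SOF with 0.4% bovine serum albumin and an insulin, transferrin and selenium supplement. Both groups of in vitro embryos came from ovaries collected at a slaughterhouse and were harvested between day 6 and day 7. They differ from in vivo embryos in the mother and the sites of oocyte maturation and fertilization as well as in the medium. They may also differ from them in age. Serum and serum-free embryos also differ in EGF, albumin and the supplement. Only early blastocysts of the best morphological grade had been selected, and each embryo was 1 replicate. The labels mark in vivo embryos with A, serum embryos with B and serum-free embryos with C. Labels do not tie an embryo to a sequencing lane, a cow or an experiment, so values within those batches are not given. The tests treat the embryos of a group as independent. Embryos that share a cow or an experiment may be alike, and p-values may then be too small.

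The trophectoderm is the outer epithelium of the blastocyst, which pumps fluid into the cavity and gives rise to the trophoblast of the placenta. In the mouse, polarity of the outer cells lets the co-activators YAP1 and WWTR1 act with TEAD4, and Cdx2, Gata3 and Eomes are switched on in those cells while pluripotency factors are withdrawn. AP-2 factors, KLF5 and GATA2 act in the same lineage. In cattle the lineages separate late, and POU5F1 persists in the trophectoderm of the early blastocyst. The trophectoderm later secretes interferon tau, the signal of pregnancy recognition.

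Some serum embryos stood apart in the number of genes detected. Serum B1, B2, B5 and B7 had counts for 11735 to 12390 genes, fewer than each in vivo embryo (13136 to 14381). Among genes chosen after values were seen, the members GATA3 and EOMES included, serum B2 lay at an end of the range for several. It had the lowest level of all 24 embryos for GATA3, POU5F1, GATA6, TEAD4, KRT8 and FN1, and the highest for EOMES, ID2, FABP5 and BMP4. Where a call named below was lost without serum B1, B2, B5 and B7, or already without 1 embryo, this is said beside it. Leaving out these 4 embryos also cut the calls over all genes. They fell from 1171 of 7181 to 224 of 7953 between serum and serum-free, and from 2074 of 7339 to 1668 of 8033 between in vivo and serum. The part of RNA quality in these levels was not tested.

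Levels below are in CPM, counts scaled by the TMM-normalized library total. They are not divided by gene length, so levels are compared between embryos and not between genes. A gene was tested when each embryo of at least 1 group compared had 15 counts or more. GATA2, GATA3, TFAP2C and KLF5 met that limit in the culture comparisons. CDX2, TFAP2A, EOMES, DLX3 and ELF3 did not, and were tested only with a limit of 1 count in an embryo. Genes past the test had an adjusted p-value under 0.05 with edgeR's quasi-likelihood test.

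**Figure D1:**
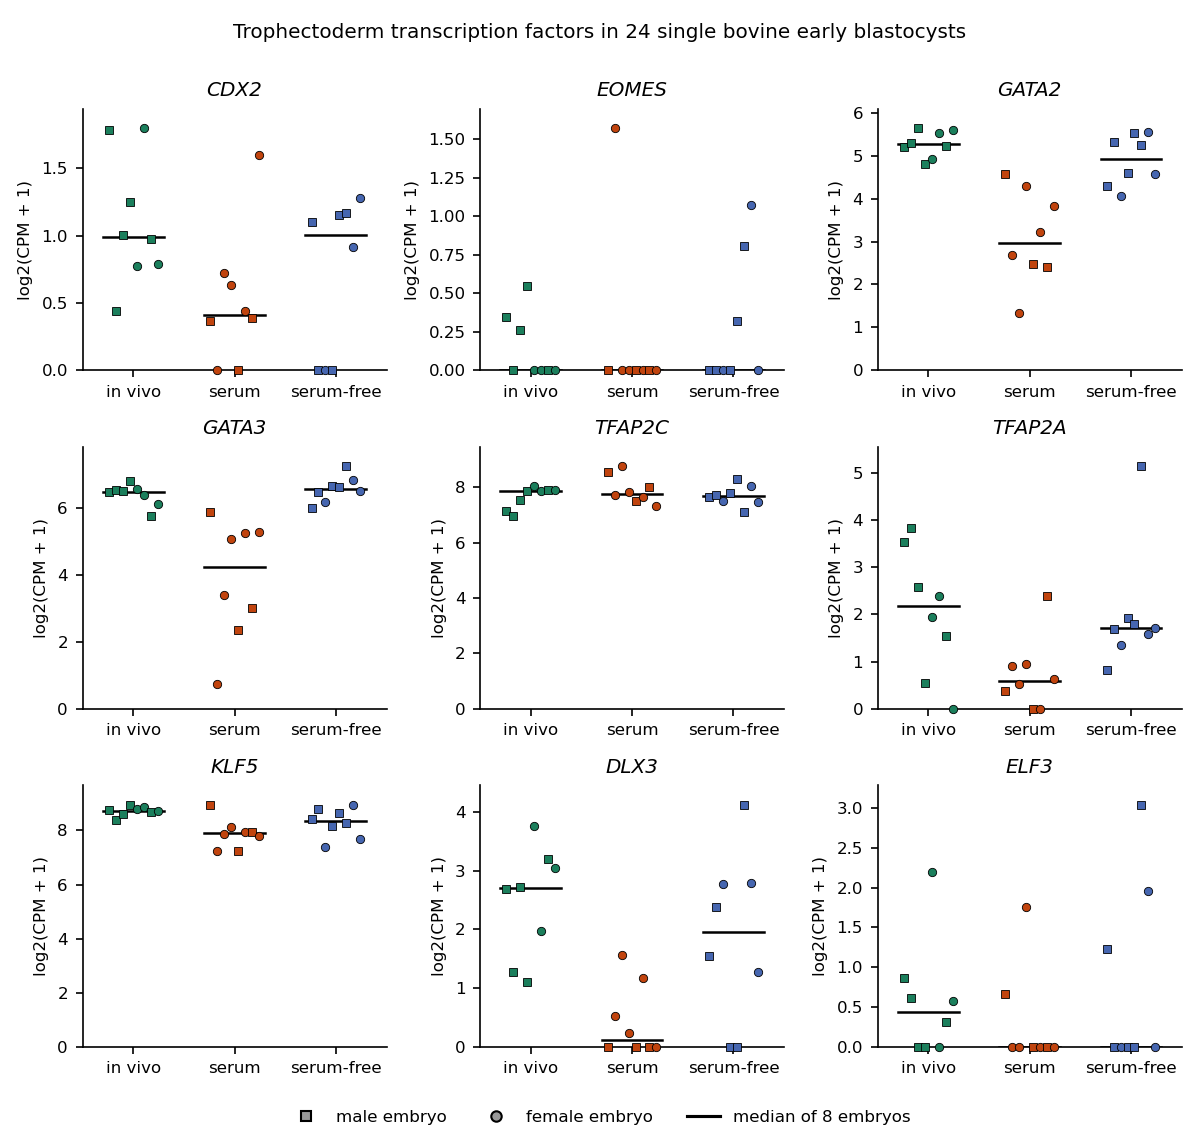
Level of each member in each embryo, as log2(CPM + 1), by condition, with squares for male and circles for female embryos and a line at the median of 8 embryos. GATA2 and GATA3 were low and scattered in serum embryos (medians of 6.90 and 21.1 CPM), TFAP2C overlapped in the 3 conditions, and CDX2, EOMES and ELF3 were close to 0 in most embryos.

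Between in vivo and serum embryos, GATA2, GATA3 and KLF5 were higher in vivo and TFAP2C did not pass the test. The log2 fold changes of in vivo over serum were 1.98 (SE 0.40) for GATA2, 1.88 (SE 0.53) for GATA3 and 0.75 (SE 0.19) for KLF5, with adjusted p-values of 0.00175, 0.0124 and 0.00759 (edgeR's quasi-likelihood test). Thus 3 of the 4 members tested were past the test, where 28.3% of all 7339 genes tested were, and all 3 were higher in vivo, as were 13.4% of all genes. GATA2 and GATA3 also changed at least 2-fold, as did 13.8% of all genes. The median log2 fold change was 1.32 over the 4 members and -0.01 over all genes tested. These 3 calls held when any single embryo was left out and when serum B1, B2, B5 and B7 were left out together. GATA2 and GATA3 met the count limit only through the in vivo embryos here, so the count and the median over the members tested are descriptions. With a limit of 15 counts in each embryo of both groups neither was tested, and KLF5 was the 1 member past the test.

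Between in vivo and serum-free embryos, none of the 4 members passed the test, where 5.82% of 7314 genes did and 2.20% also changed at least 2-fold. GATA2 had a log2 fold change of 0.29 (95% interval -0.20 to 0.78, adjusted p = 0.521) and KLF5 of 0.33 (-0.05 to 0.70, adjusted p = 0.306). GATA3 had -0.22 (-0.58 to 0.14, adjusted p = 0.507) and TFAP2C -0.08 (-0.44 to 0.28, adjusted p = 0.846) in the same edgeR test. A 2-fold difference lay outside each of these intervals. DESeq2 and edgeR's exact test called 0 of the 4 as well.

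Serum and serum-free embryos differed in both GATA factors, which met the count limit only through the serum-free embryos. GATA3 was lower in serum, with a log2 fold change of serum over serum-free of -2.10 (SE 0.54, adjusted p = 0.0162, edgeR), and GATA2 was lower too, with -1.69 (SE 0.44, adjusted p = 0.0168). KLF5 had -0.42 (95% interval -0.94 to 0.09, adjusted p = 0.239) and TFAP2C 0.24 (-0.23 to 0.70, adjusted p = 0.480), and neither passed. Among all 7181 genes tested, 16.3% passed, 8.02% passed with the lower level in serum and 8.91% passed with a change of at least 2-fold. Both calls held when any single embryo was left out. Without serum B1, B2, B5 and B7 the value for GATA2 was -1.60 and its adjusted p 0.0802, so that GATA3 was the 1 member past the test. Each group of embryos enters 2 of these 3 comparisons, so the comparisons are not independent of each other.

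**Figure D2:**
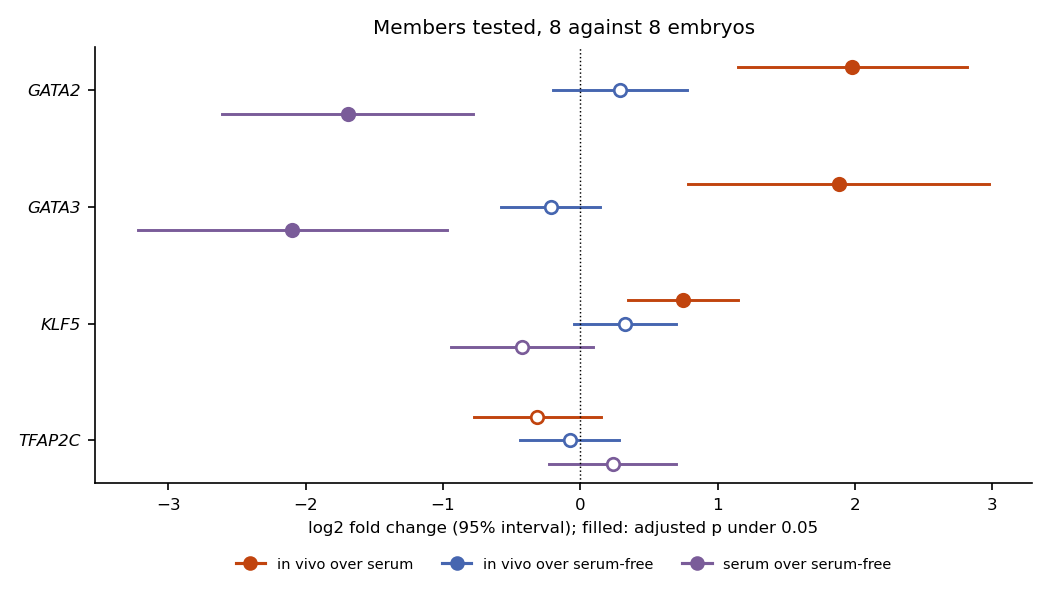
Log2 fold change of the 4 members tested in the 3 comparisons of culture conditions, 8 against 8 embryos, with 95% intervals. Filled points are past the test: GATA2, GATA3 and KLF5 for in vivo over serum, and GATA2 and GATA3 for serum over serum-free.

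GATA2 and GATA3 are zinc finger factors that bind the same GATA motif in trophoblast genes, and in cattle trophoblast cells GATA2 is known to act on the genes of interferon tau. In vivo embryos had GATA2 levels from 27.1 (A4) through a median of 37.4 to 48.8 CPM (A3), with a mean of 38.5 ± 8.13 (SD, n = 8). Serum embryos had 1.52 (B3), 6.90 and 22.9 CPM (B1), with a mean of 9.88 ± 7.65 (SD, n = 8). The highest serum embryo was below the lowest in vivo embryo, a separation that 7.00% of all genes tested showed in either direction. Fewer trophectoderm cells and less GATA2 RNA per cell cannot be told apart in whole embryos, for this and each other member. Serum-free embryos had 15.6 (C3), 30.2 and 45.7 CPM (C8), with a mean of 31.0 ± 12.1 (SD, n = 8). Their range covered most of the in vivo range, and it overlapped with serum only at serum B1 and B4. Between in vivo and serum-free embryos 0.971% of genes were separated, and no member tested was among them.

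GATA3 ranged in vivo from 53.0 (A8) through 88.5 to 110 CPM (A4), with a mean of 84.3 ± 17.1 (SD, n = 8). In serum the range was 0.656 (B2), 21.1 and 57.8 CPM (B1), with a mean of 23.3 ± 20.7 (SD, n = 8). All serum embryos but B1 were below each in vivo embryo, and B1 was above A8. The widest gap in CPM among serum embryos, chosen after values were seen, lay between 9.55 and 32.6 CPM. B1, B4, B6 and B8 had 32.6 to 57.8 CPM, while B2, B3, B5 and B7 had 0.656 to 9.55 CPM. Both sides held male and female embryos. The gap from B8 (37.7 CPM) to B1 was nearly as wide, and a division into sets was not tested. Serum-free embryos had 62.2 (C1), 93.9 and 150 CPM (C7), with a mean of 96.1 ± 26.9 (SD, n = 8). All of them were above all serum embryos, a separation that 2.28% of genes tested showed between serum and serum-free. Without serum B2, whose GATA3 count was 3, the log2 fold change of in vivo over serum was 1.66 (adjusted p = 0.00600, edgeR) and that of serum over serum-free was -1.89 (adjusted p = 0.00946).

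The ratio of GATA2 to GATA3 counts within an embryo differed most in range among serum embryos. It depends on the lengths of both genes, so only its spread over embryos is described, with 0.5 added to each count. The log2 ratio ran from -2.01 to -0.53 in vivo and from -2.19 to -1.11 in serum-free embryos. In serum it ran from -2.57 (B3) to 2.87 (B2), with a median of -1.06. Its upper end rests on B2 and its 3 GATA3 counts, and without B2 the serum ratios ran to 0.16 (B5), with a median of -1.33. B3 had the lowest GATA2 of all embryos and B2 the lowest GATA3, so the embryos lowest for each GATA factor were different ones.

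**Figure D3:**
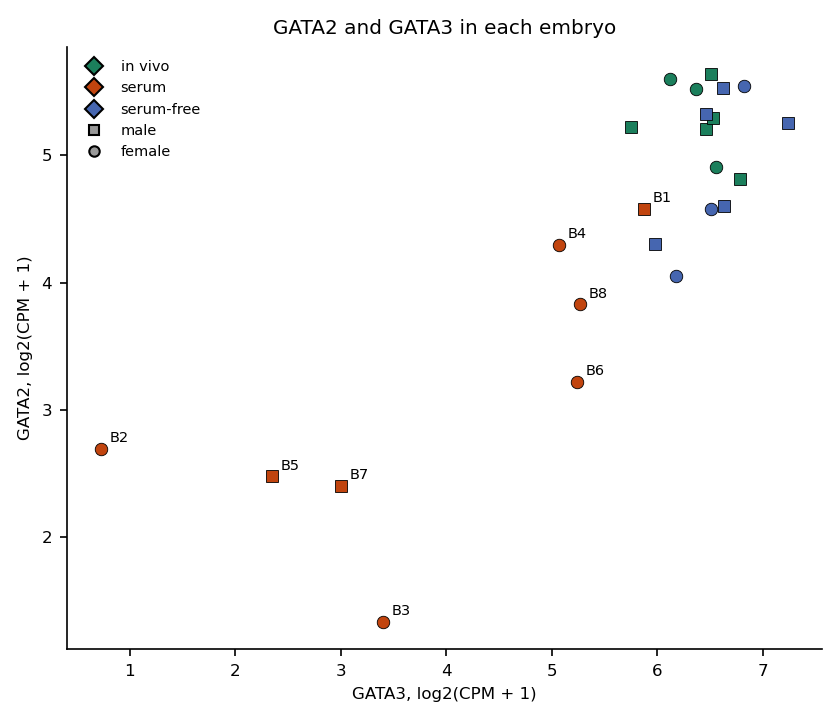
GATA2 against GATA3 in each embryo, both as log2(CPM + 1), coloured by condition, with squares for male and circles for female embryos and labels on serum embryos. In vivo and serum-free embryos share the upper right, serum B1, B4, B6 and B8 lie next to them, and serum B2, B3, B5 and B7 lie further off, at 0.656 to 9.55 CPM of GATA3.

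KLF5 is a Krüppel-like factor that the mouse blastocyst needs for its trophectoderm and that also acts in pluripotent cells. In vivo embryos were the most uniform, from 333 (A2) through 426 to 489 CPM (A4), with a mean of 422 ± 47.8 (SD, n = 8). Serum embryos had 149 (B5), 239 and 489 CPM (B1), with a mean of 252 ± 106 (SD, n = 8). B1 lay within the in vivo range, and the other 7 serum embryos, from 149 to 278 CPM, were below each in vivo embryo. Serum-free embryos had 165 (C3), 325 and 496 CPM (C8), with a mean of 331 ± 115 (SD, n = 8), and overlapped with both other groups. The standard deviation was 11.3% of the mean in vivo, 42.1% in serum and 34.6% in serum-free.

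TFAP2C encodes AP-2 gamma, which in the mouse acts upstream of Cdx2 and of epithelial junction genes, and it did not pass the test in any comparison. In vivo levels ran from 125 (A2) through 230 to 263 CPM (A6), with a mean of 206 ± 50.6 (SD, n = 8). Serum levels ran from 162 (B8) through 218 to 432 CPM (B3), with a mean of 255 ± 97.1 (SD, n = 8), and serum-free levels from 137 (C7) through 207 to 319 CPM (C6), with a mean of 214 ± 55.8 (SD, n = 8). The 3 ranges overlapped. The log2 fold change of in vivo over serum was -0.32 (95% interval -0.78 to 0.15, adjusted p = 0.292, edgeR), so that a 2-fold difference in either direction lay outside the interval. Serum B3, which had the least GATA2, had the most TFAP2C of all 24 embryos.

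TFAP2A encodes AP-2 alpha, the close relative of TFAP2C. In vivo embryos had 0 (A9), 3.57 and 13.3 CPM (A2) and serum embryos 0 (B5 and B6), 0.493 and 4.29 CPM (B7). Serum-free embryos had 0.763 (C1), 2.26 and 34.4 CPM (C7). The groups overlapped, and 4 of 8 in vivo embryos, 0 serum embryos and 1 serum-free embryo had at least 15 counts. With the limit of 1 count the log2 fold change was 2.42 for in vivo over serum (adjusted p = 0.101, edgeR) and -2.77 for serum over serum-free (adjusted p = 0.0989). Without serum B7 these values were 3.41 (adjusted p = 0.0294) and -3.75 (adjusted p = 0.0453), so 1 embryo decided both calls. The value for serum over serum-free also rested on serum-free C7, which had 138 counts. Without C7 it was -1.16 (adjusted p = 0.522, edgeR). DESeq2 called TFAP2A for in vivo over serum (adjusted p = 0.0400) and not for serum over serum-free (adjusted p = 0.338). The log2 ratio of TFAP2A to TFAP2C counts had medians of -6.09 in vivo, -8.81 in serum and -6.65 in serum-free, with overlapping ranges.

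DLX3 is a homeobox factor of placental trophoblast. Each in vivo embryo had DLX3 counts, from 5 to 53, at levels of 1.15 (A4), 5.53 and 12.6 CPM (A6). Serum embryos had 0 to 9 counts, with none in B1, B5, B7 and B8, and a highest level of 1.95 CPM (B3). Serum-free embryos ran from 0 (C4 and C6) through 3.05 to 16.5 CPM (C7). The in vivo and serum ranges overlapped only at A2, A4, B3 and B6. DLX3 was the 1 member of the 5 with few counts to pass the test with the limit of 1 count, with a log2 fold change of in vivo over serum of 3.46 (adjusted p = 0.0130, edgeR), where 10.7% of 19159 genes passed. It kept that call with each single embryo left out, but not without serum B1, B2, B5 and B7, where the value was 2.70 and the adjusted p 0.0591. For serum over serum-free the log2 fold change was -3.16 (adjusted p = 0.0973, edgeR), where 4.03% of genes passed, and for in vivo over serum-free it was 0.30 (adjusted p = 0.891), where 1.36% passed. DESeq2 called DLX3 lower in serum than in serum-free (log2 fold change -3.23, adjusted p = 0.0327).

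CDX2, the homeobox factor that in the mouse keeps the trophectoderm from reverting to a pluripotent state, was at the edge of detection in these libraries. The largest CDX2 count was 11, in in vivo A7 and serum B8, and the 8 embryos of a group held 43 counts in all in vivo, 21 in serum and 25 in serum-free. In vivo levels were 0.355 (A2), 0.983 and 2.48 CPM (A7), serum levels 0 (B2 and B5), 0.330 and 2.02 CPM (B8), and serum-free levels 0 (C2, C3 and C4), 1.01 and 1.43 CPM (C10). A count of 0 allows a level of up to 3 counts, which equalled 0.362 to 0.919 CPM in these embryos, and this limit covers counting error only. All in vivo embryos had CDX2 counts and the groups overlapped. With the limit of 1 count the adjusted p-values were 0.379, 0.715 and 0.836 in the 3 comparisons (edgeR), and differences in CDX2 were not detectable at these counts. Whether the exons counted cover the whole CDX2 gene was not checked, so the counts do not give its level.

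EOMES, a T-box factor of mouse trophoblast stem cells, had 4, 9 and 9 counts in all in the 8 in vivo, serum and serum-free embryos. All 9 counts of the serum group were in B2, and 17 of the 24 embryos had none. ELF3, an ETS factor of epithelia, had no counts in 14 of the 24 embryos, and its highest levels were 3.57 CPM in vivo (A6), 2.38 CPM in serum (B4) and 7.23 CPM in serum-free (C7). Neither passed the test with the limit of 1 count in any comparison, the smallest adjusted p being 0.459 (edgeR). Serum-free C7 had the highest ELF3, DLX3, TFAP2A and GATA3 of all 24 embryos, and the lowest TFAP2C of the serum-free group.

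Sex was examined within each culture condition and for each change between in vivo and culture. No member tested differed between male and female embryos in vivo, in serum or in serum-free (0 of 4, 0 of 3 and 0 of 4 past the edgeR test), where 1.26%, 0.173% and 0.152% of genes did. Of the members tested, TFAP2C in vivo came nearest, at 184 ± 51.1 CPM in 5 male embryos and 244 ± 17.2 CPM in 3 female embryos (SD). Its groups overlapped and its adjusted p was 0.363 (edgeR).

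In male embryos GATA2 was from 27.1 to 48.8 CPM in vivo (n = 5), 4.29, 4.58 and 22.9 CPM in serum (n = 3), and 18.7 to 45.3 CPM in serum-free (n = 5). It was higher in vivo than in serum with a log2 fold change of 1.85 (SE 0.56, adjusted p = 0.0387, edgeR), where 19.0% of genes passed. GATA2 met the count limit only through the in vivo males, as serum B7 had 14 counts. All 3 male serum embryos, B1, B5 and B7, are among those with fewer genes detected than each in vivo embryo, so no value for male embryos without them can be given. That call was lost on leaving out any 1 of A1, A2, A3, A4, A8, B5 and B7 (adjusted p from 0.053 to 0.120), while without B1 the value was 3.14 (adjusted p = 0.000381). GATA3 had a log2 fold change of 1.94 (adjusted p = 0.0742) and KLF5 of 0.49 (adjusted p = 0.296), and both passed without serum B1, with 4.07 (adjusted p = 9.04e-05) and 1.12 (adjusted p = 0.00505). GATA3 also passed with DESeq2 (adjusted p = 0.0121) and with edgeR's exact test (adjusted p = 0.0375). DLX3 had no counts in any of the 3 male serum embryos and 1.15 to 8.19 CPM in the 5 male in vivo embryos. CDX2 did not overlap either, at no more than 1 count in each male serum embryo and 2 to 9 counts in the male in vivo embryos. Of all 18061 genes with at least 1 count in an embryo, 14.3% did not overlap between these 5 and 3 embryos.

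In female embryos GATA2 was from 29.0 to 47.7 CPM in vivo (n = 3), 1.52 to 18.7 CPM in serum (n = 5) and 15.6 to 45.7 CPM in serum-free (n = 3). In vivo and serum ranges of female embryos did not overlap for GATA2, GATA3 and KLF5, 3 of the 4 members tested, a separation that 22.7% of all genes tested showed. GATA2 and GATA3 met the count limit only through the in vivo females, so this is a description. None passed the edgeR test, where 0.418% of genes did: the log2 fold changes were 2.08 for GATA2 (adjusted p = 0.119), 1.79 for GATA3 (adjusted p = 0.227) and 0.94 for KLF5 (adjusted p = 0.0740). Without serum B2, GATA3 (1.49, adjusted p = 0.0429) and KLF5 (0.86, adjusted p = 0.0103) passed, and DESeq2 and edgeR's exact test called GATA2 and KLF5 with all embryos. In vivo over serum-free, 0 of 4 members passed in either sex, where 1.76% of genes passed in male and 0.304% in female embryos.

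**Figure D4:**
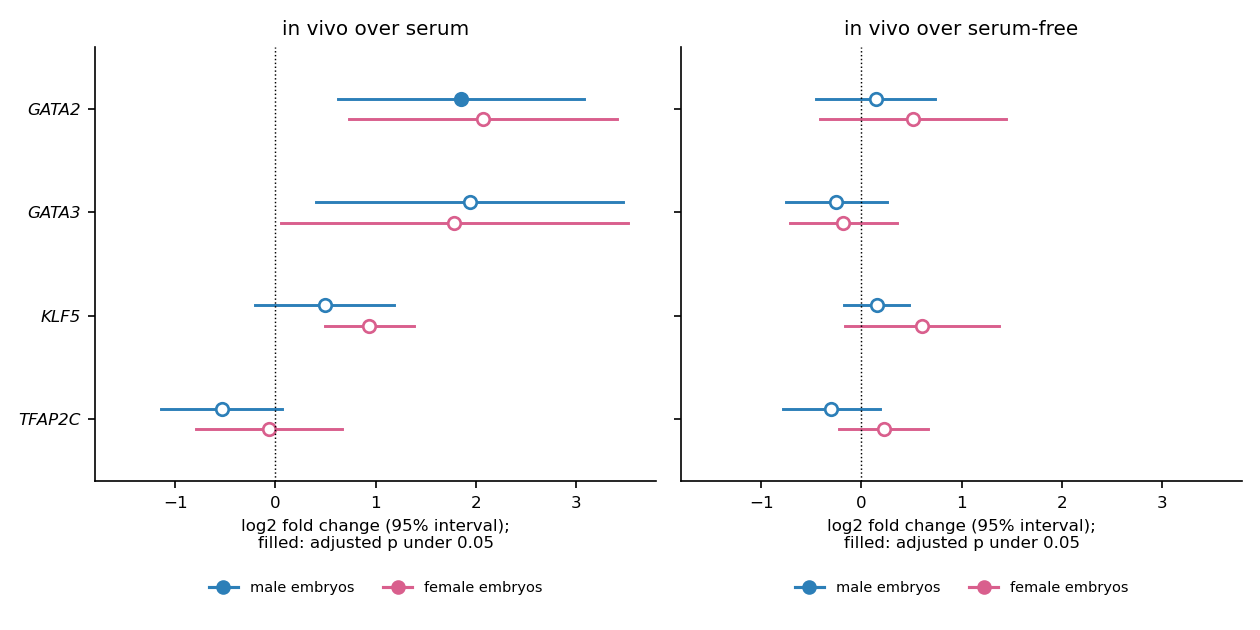
Log2 fold change of in vivo over serum (left) and of in vivo over serum-free (right) for the 4 members tested, in male and female embryos apart, with 95% intervals. Filled points are past the test, here GATA2 in male embryos, and the intervals of the sexes overlap for each gene.

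The difference between the sexes was tested as an interaction of sex and culture. For in vivo and serum it was -0.27 (95% interval -2.06 to 1.53) for GATA2, 0.12 (-2.26 to 2.51) for GATA3, -0.48 (-1.32 to 0.36) for KLF5 and -0.51 (-1.46 to 0.44) for TFAP2C on the log2 scale, male minus female, with an adjusted p of 0.998 for each (edgeR). For in vivo and serum-free the smallest adjusted p among the 4 members was 0.855, for TFAP2C. No gene passed either interaction test (0% of 8446 and of 8425 genes), while 436 and 555 genes had an unadjusted p under 0.05, and DESeq2 called 14 and 5 genes. The intervals for GATA2 and GATA3 are wide enough to hold a 2-fold difference between the sexes in either direction.

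Within a condition, members that fell together between groups were not shown to vary together, though 8 embryos leave little power to show it. Of 18 relations between GATA2, GATA3, KLF5 and TFAP2C over the 8 embryos of each condition, none had an adjusted p under 0.05. The strongest was between GATA2 and KLF5 in serum-free embryos, with Pearson's r = 0.80 (exact permutation p = 0.0163, adjusted p = 0.165) and Spearman's rho = 0.83 (exact permutation p = 0.0154, adjusted p = 0.277). Without C1 and C3, the embryos furthest from the GATA2 median, r was 0.88. In serum GATA3 and KLF5 had r = 0.79 (exact permutation p = 0.0184, adjusted p = 0.165), which was 0.54 without B2 and B5. GATA2 and GATA3 had r = 0.68 in serum (exact permutation p = 0.0670, adjusted p = 0.241), and 0.76 without B1 and B3. The GATA3 values of serum embryos had a gap, and r on each side of it was not computed.

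Genes whose levels followed each member over the 24 embryos were sought among 8730 genes, by Pearson's r of log2(CPM + 1). The embryos share condition and library, so r is a description, given first over 24 embryos and then after each condition's mean was subtracted. GATA3 was followed most closely by DSTN (r = 0.96 and 0.91), NDUFB10 (0.96 and 0.91) and SYNGR1 (0.95 and 0.93), and GATA2 by ARHGAP18 (0.93 and 0.82), MGC139367 (0.93 and 0.84) and ACADS (0.91 and 0.71). DSTN encodes an actin-severing protein. KLF5 was followed by GOLPH3 (0.85 and 0.75), PLCB3 (0.82 and 0.75) and an unnamed Ensembl gene, and TFAP2C by EMC10 (0.81 and 0.81), YRDC (0.78 and 0.79) and HNRNPL (0.76 and 0.75). The genes nearest to TFAP2A were KRT19 (0.80 and 0.83), a keratin of the trophectoderm, FAM36A and TAOK3. Serum-free C7 had the highest level of TFAP2A (34.4 CPM) and of KRT19 (517 CPM), and r without C7 was not computed. SLC16A11, PLD3 and TMEM62 were nearest to DLX3, with r from 0.76 to 0.81. For CDX2, EOMES and ELF3, whose counts were few, r was at most 0.74, 0.69 and 0.65, with TMLHE, AMD1 and NUCB2 first. Among members, r was 0.84 between GATA2 and GATA3 (0.61 within conditions) and -0.25 between GATA2 and TFAP2C (-0.05). KLF5 had r of 0.74 with GATA2 (0.59 within conditions), 0.68 with GATA3 (0.57) and 0.24 with TFAP2C (0.53). Between GATA3 and TFAP2C r was -0.18 (0.05 within conditions).

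Other trophoblast transcription factors did not follow 1 pattern. Of 20 matched genes 10 were tested between in vivo and serum: 3 were higher in vivo, 1 was higher in serum and 6 did not pass, with a median log2 fold change of 0.25. Here and for the lists below, 28.3% of all genes tested passed between in vivo and serum, and 13.4% were higher in vivo. VGLL1, a co-factor of TEAD proteins in trophoblast, had 4.82 to 21.5 CPM in vivo and 0 to 3.12 CPM in serum, without overlap, and a log2 fold change of 3.65 (adjusted p = 0.00114). OVOL1 (1.69, adjusted p = 0.0136) and GRHL1 (1.66, adjusted p = 0.0200), both factors of epithelial and trophoblast maturation, were also higher in vivo. VGLL1, OVOL1 and GRHL1 met the count limit only through the in vivo embryos, so the count of 3 is a description. ID2, an inhibitor of basic helix-loop-helix factors, was higher in serum with -3.07 (adjusted p = 0.0108), but its level was 731 CPM in B2 and at most 84.8 CPM in any other embryo, and without B2 the value was -1.16 (adjusted p = 0.0613). Without serum B1, B2, B5 and B7, VGLL1 kept its call (2.72), while OVOL1 (1.41, adjusted p = 0.0503) and GRHL1 (1.21, adjusted p = 0.0829) lost theirs. ELF5, a factor of mouse trophoblast stem cells, had at most 12 counts in an embryo.

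Relatives of the members were mostly not tested for lack of counts. Of 27 matched paralogues 7 were tested between in vivo and serum, of which 2 were higher in vivo and 5 did not pass. DLX4, which like DLX3 is a distal-less homeobox gene, had 6.89 to 36.5 CPM in vivo, 0 to 4.35 CPM in serum and 2.21 to 33.7 CPM in serum-free, with a log2 fold change of in vivo over serum of 3.67 (adjusted p = 0.00147, edgeR). Its in vivo and serum groups did not overlap, as for GATA2, and DLX4 met the count limit only through the in vivo embryos. KLF6 was higher in vivo with 1.24 (adjusted p = 0.0162), a call lost without serum B1, B2, B5 and B7 (0.70, adjusted p = 0.105), unlike that of DLX4 (3.24, adjusted p = 0.00295). Between in vivo and serum-free the 1 paralogue past the test was ELF2 (0.93, adjusted p = 0.0305), a call lost without A1, A4, A9 or C4.

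The TEAD and Hippo genes, which act upstream of CDX2 and GATA3 in the mouse, passed the test about as often as all genes. TEAD4 had 20.9 to 40.5 CPM in vivo, 5.25 to 88.2 CPM in serum and a median of 42.1 CPM in serum-free, and did not pass between in vivo and serum (-0.71, adjusted p = 0.105). Of 11 genes tested 1 was higher in vivo, 2 were higher in serum and 8 did not pass, where 28.3% of all genes tested passed. WWTR1, the co-activator also called TAZ, was higher in serum than in vivo (28.1 ± 6.21 against 16.9 ± 4.63 CPM, SD, n = 8 each), with a log2 fold change of -0.74 (adjusted p = 0.0199, edgeR) that kept its call with each embryo left out but not without serum B1, B2, B5 and B7 (-0.53, adjusted p = 0.168). TEAD3 (0.89, adjusted p = 0.0335) and the kinase LATS2 (-1.44, adjusted p = 0.0390) lost their calls on leaving out any 1 of 8 and of 10 embryos. Both also lost them without serum B1, B2, B5 and B7 (0.51, adjusted p = 0.0893, and -0.97, adjusted p = 0.298, edgeR). LATS2 met the count limit only through the serum embryos. Of 8 upstream signalling genes tested, BMP4, a ligand that can induce trophoblast genes, was higher in serum (-1.83, adjusted p = 0.00298) and 7 did not pass.

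Effector genes of the trophectoderm epithelium were read in the same embryos. Of 22 matched genes 17 were tested between in vivo and serum, of which 13 were higher in vivo, 2 were higher in serum and 2 did not pass, with a median log2 fold change of 1.39. Among all 7339 genes tested, 13.4% were higher in vivo. PAG2, KRT19 and IFNT met the count limit only through the in vivo embryos and FABP5 only through the serum embryos. The count and the median are therefore descriptions. KRT8, a keratin that marks the trophectoderm, had 6002 to 11745 CPM in vivo, 35.9 to 4082 CPM in serum and 3822 to 22365 CPM in serum-free. The in vivo and serum groups did not overlap for KRT8 or for KRT19, whose log2 fold change was 3.52 (adjusted p = 1.35e-05, edgeR). PAG2, a pregnancy-associated glycoprotein of the trophoblast, had a log2 fold change of 4.08 (adjusted p = 0.00518). AQP3, a water and glycerol channel, and FABP5, a fatty acid carrier, were the 2 genes higher in serum, with -1.01 (adjusted p = 0.00537) and -2.73 (adjusted p = 0.0115), the latter -1.52 (adjusted p = 0.0415) without B2 and -1.75 (adjusted p = 0.0598) without B1, B2, B5 and B7. Between in vivo and serum-free 0 of 17 were higher in vivo and 2, FABP5 and SLC2A1, were higher in serum-free, SLC2A1 with a call lost on leaving out any 1 of 10 embryos. FABP5 met the count limit there only through the serum-free embryos. Between serum and serum-free 9 of 16 were lower in serum, where 8.02% of all genes tested were. Among the 9 were KRT19 and IFNT, which met the count limit only through the serum-free embryos, and KRT8. AQP3 was higher in serum. IFNT (adjusted p = 0.0510) and AQP3 (adjusted p = 0.0592) lost these calls without B1, B2, B5 and B7. KRT19 (-4.89) and KRT8 (-2.25) kept theirs. Without these 4 embryos, 4 of 17 effector genes were lower in serum than in serum-free. There 224 of all 7953 genes tested passed in either direction, against 1171 of 7181 with all embryos. For in vivo over serum 13 of 18 were still higher in vivo, where 1668 of 8033 genes passed in either direction, against 2074 of 7339.

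Markers of the other lineages were not uniformly raised in serum embryos. POU5F1 had 185 to 246 CPM in vivo, 25.8 to 205 CPM in serum and 105 to 225 CPM in serum-free, and did not pass between in vivo and serum (0.55, adjusted p = 0.0979). SOX2 was higher in serum, at 19.9 ± 14.6 against 8.39 ± 2.77 CPM in vivo (SD, n = 8 each; -1.25, adjusted p = 0.0271, edgeR), a call lost without B3 (-0.89). NANOG ranged from 1.69 to 26.7 CPM in vivo, from 1.16 to 209 CPM in serum and from 5.16 to 218 CPM in serum-free, and was not tested between in vivo and serum. Of 9 inner cell mass markers tested, SPIC was higher in vivo (a call lost on leaving out any 1 of 5 embryos), SOX2 was higher in serum and 7 did not pass. GATA6, an early factor of primitive endoderm, had 14.0 to 27.2 CPM in vivo and 5.69 to 34.3 CPM in serum (adjusted p = 0.709). Of 9 primitive endoderm markers tested 2 were higher in vivo and 7 did not pass. The 2 were PDGFRA (2.04, adjusted p = 0.00101) and FN1 (1.98, adjusted p = 0.0143), each without overlap.

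Summed over its 22 genes, the trophectoderm effector list had 10542 to 19278 CPM in vivo, 1396 to 8177 CPM in serum and 8781 to 33954 CPM in serum-free. KRT8 was the largest part of this sum, with medians of 8643, 727 and 6794 CPM where the sums had 14430, 3235 and 12133 CPM. Sums of the 15 inner cell mass markers were 1670 to 2190, 1121 to 2067 and 1453 to 1914 CPM in the same order. Sums of the 18 primitive endoderm markers were 5010 to 7733, 84.2 to 3364 and 3667 to 6301 CPM. Most of this sum was FN1, with medians of 5439, 1527 and 4106 CPM where the sums had 6259, 2022 and 4620 CPM. The list was not lower in serum as a whole: LAMB1 and GATA6 had higher medians in serum than in vivo. Cumulus cells, which surround the oocyte, could remain on an embryo. Their 14 matched markers summed to 45.6 to 82.0 CPM in vivo, 13.6 to 161 CPM in serum and 43.0 to 99.1 CPM in serum-free, PTX3 had no count in any embryo, and 0 of the 2 tested passed between in vivo and serum. The part of the proportions of these cell types in the levels of GATA2, GATA3, KLF5 and DLX3 was not tested.

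The same lists gave fewer calls between in vivo and serum-free embryos, where 5.82% of all genes tested passed, against 28.3% between in vivo and serum. The other trophoblast factors had 1 of 10 genes past the test, MSX2, higher in serum-free (-0.55, adjusted p = 0.0498), a call lost with any 1 of 13 embryos left out. None of 10 TEAD and Hippo genes, 8 signalling genes and 2 cumulus markers passed the edgeR test. Inner cell mass markers had 1 of 10 past the test, SPIC, higher in vivo (0.65, adjusted p = 0.0109), and primitive endoderm markers had 3 of 10, PDGFRA higher in vivo (1.01) and LAMA1 (-3.46) and LAMB1 (-0.68, lost with any 1 of 6 embryos left out) higher in serum-free. LAMA1 met the count limit only through the serum-free embryos, so the count of 3 is a description. Between serum and serum-free, 16.3% of all 7181 genes tested passed. Of 7 other trophoblast factors, ID2 was higher in serum (3.34, lost without B2) and GRHL1 lower (-1.52, lost with any 1 of 13 embryos left out). WWTR1 (0.99) and LATS2 (1.29) were higher and TEAD3 (-1.06) and STK3 (-0.87) lower in serum, of 8 TEAD and Hippo genes, and each of these lost its call without serum B1, B2, B5 and B7. KLF4, the relative of KLF5 that also counts among inner cell mass genes, was higher in serum (1.12), as was BMP4 (2.23), and both calls were lost without these 4 embryos (adjusted p = 0.0906 and 0.104, edgeR). LAMA1 was lower in serum (-3.04). In this comparison ID2, LATS2 and BMP4 met the count limit only through the serum embryos. GRHL1 and LAMA1 met it only through the serum-free embryos. The counts that hold these genes are descriptions.

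**Figure D5:**
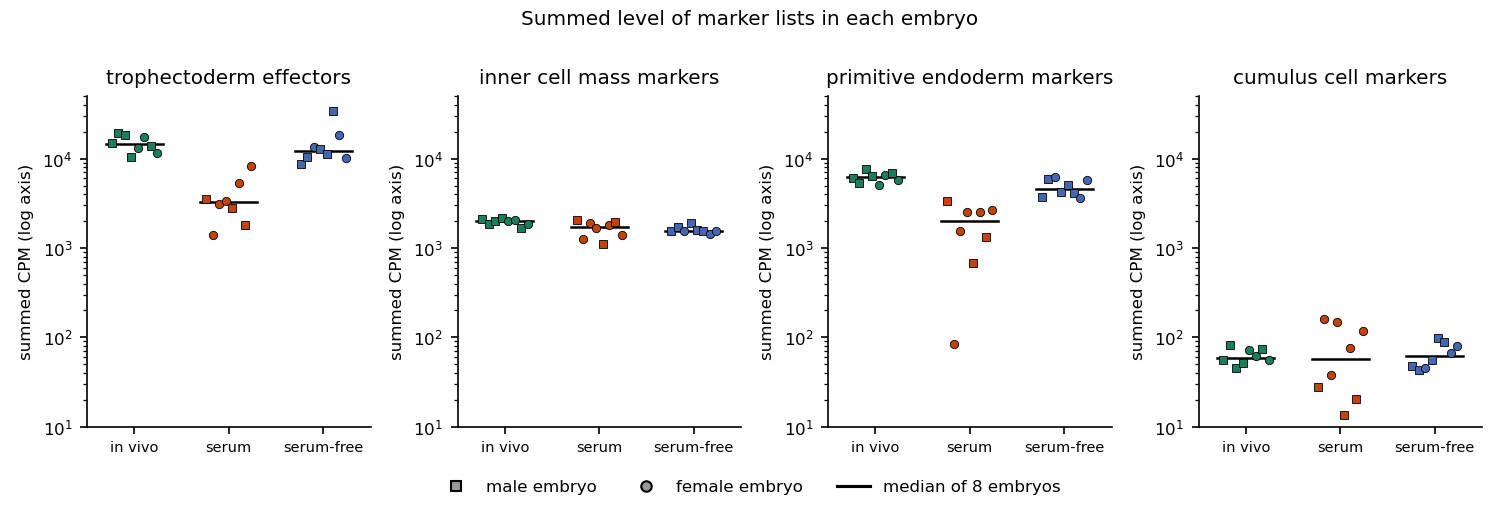
Summed CPM of 4 marker lists in each embryo, on a log axis, by condition, with squares for male and circles for female embryos and a line at the median of 8 embryos. The effector and primitive endoderm sums of serum embryos lie below those of in vivo embryos, at most 8177 and 3364 CPM, while the inner cell mass and cumulus sums overlap. KRT8 is the largest part of the effector sum and FN1 of the primitive endoderm sum.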

How the data were processed

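RNA of single early blastocysts was sequenced after amplification. After trimming and mapping to bovine build UMD 3.1, the authors counted the unique fragments on exons and deposited these raw counts by gene for each embryo. All 24 value columns were matched to an embryo by name. Condition and sex came from the labels.

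Counts were TMM-normalized and tested with edgeR 4.0.16 (quasi-likelihood test) in R 4.3.3, in fits holding only the groups compared, with Benjamini-Hochberg adjustment over all genes tested. Log2 fold changes are first group over second. Standard errors and 95% intervals follow from each log2 fold change and its F value. DESeq2 1.42.0 and edgeR's exact test, which the study's methods name, were alternatives. Relations were tested by exact permutation (SciPy). The test was tested on simulated data. Same-numbered embryos of different conditions do not come from 1 animal.

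The members and the gene lists were chosen with earlier results of these data known. All 9 members are named in each comparison, and of each list at most 4 genes past the test with the largest changes (2 in each direction where there are 2). For other named values this rule fixed POU5F1, NANOG, SOX2, GATA6, TEAD4, ELF5 and the 3 genes most like each member. KRT8 between in vivo and serum, the genes naming serum B2's place, the places of B3 and C7, and the gap in GATA3 among serum embryos were chosen after values were seen.

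Sequences and coordinates are not given here. Precision is limited by the totals of exon counts, and fragments carry no molecular identifiers.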

Additional observations from a re-analysis of the deposited data

Results flagged for a closer look

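Among the 27 sets of 8 embryos, 1 for each member and condition, 9 held an embryo whose gap to the next one exceeded Dixon's 95% critical value for 8 samples. Chance alone flags about 1 in 20 such sets, and sets that are mostly at or near 0 counts are flagged readily. In each of the 9 sets it was the highest embryo, and 7 embryos account for them.

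Serum-free C7 was far above the other serum-free embryos for TFAP2A (34.4 CPM), DLX3 (16.5 CPM) and ELF3 (7.23 CPM). In serum, B1 stood above the rest for KLF5 (489 CPM), B7 for TFAP2A (4.29 CPM), B8 for CDX2 (2.02 CPM), B4 for ELF3 (2.38 CPM) and B2 for EOMES (1.97 CPM). Among in vivo embryos, A6 stood apart for ELF3 (3.57 CPM). No set of GATA2, GATA3 or TFAP2C was flagged. No member passed the test of a different response to culture in the sexes.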

How the results depend on the processing

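Between in vivo and serum the 3 member calls, and their direction, held in each alternative and with each embryo left out, except that 15 counts in each embryo of both groups left 1 call because GATA2 and GATA3 were not tested. No alternative or left-out embryo called a member between in vivo and serum-free. Between serum and serum-free the 2 calls became 0 under that limit and 1 without serum B1, B2, B5 and B7. The latter was chosen after seeing the data, as were leaving out serum B2 for the gene lists and the further alternatives for the 5 members with few counts. Between male in vivo and male serum embryos the 1 member called became 2 with the exact test or DESeq2, 3 with a limit of 1 count and 0 with the stricter limit (0 to 3 with an embryo left out). Between female embryos the 0 became 2 with the exact test or DESeq2 (0 to 2 with an embryo left out).

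Embryos sharing a label number did not deviate together (mean correlation -0.044, -0.0047 and -0.036 over 7 shared numbers in each comparison), so the numbers do not pair them. With the number as a replicate block, genes past the test fell from 2074 to 1077, from 426 to 160 and from 1171 to 30, and GATA2 (-1.93, adjusted p = 0.0699) and GATA3 (-2.43, adjusted p = 0.0756) left 0 members past the edgeR test between serum and serum-free, while the block changed no other member call.

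Genes past the test moved by over 1.5 times in these settings. In vivo against serum-free gave 666 with DESeq2, 260 with a limit of 1 count, 114 in 1 fit over all embryos and 275 to 468 with an embryo left out (275 without A7). Serum against serum-free gave 772, 1817 in 1 fit, 224 without the 4 serum embryos and 690 to 1342 with an embryo left out (690 without C7). With the exact test and DESeq2 the counts were 343 and 463 for male in vivo against serum-free, 491 and 716 for female in vivo against serum (59 with a limit of 1 count), 225 and 228 for female in vivo against serum-free (296), 232 and 298 for male against female in vivo (160), 62 and 100 in serum (0 with the stricter limit) and 63 and 72 in serum-free (24, and 0 with the stricter limit). With DESeq2 the interactions gave 14 and 5. With an embryo left out the ranges were 797 to 2366 and 10 to 231 for the male comparisons with serum and serum-free, 2 to 596 and 1 to 18 for the female ones, and 56 to 111 and 7 to 23 for male against female in vivo and in serum. The causes were not tested.

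Small values of members that were not past the test changed sign with 1 embryo left out, in 12 cases. In vivo over serum-free these were TFAP2C (-0.15 to 0.018), GATA2 in male (-0.0047 to 0.29) and GATA3 in female embryos (-0.32 to 0.013), and in vivo over serum TFAP2C in female embryos (-0.19 to 0.26). For male over female embryos they were GATA2 (-0.31 to 0.010) and GATA3 (-0.029 to 0.20) in vivo, GATA3 (-2.16 to 0.45), TFAP2C (-0.29 to 0.38) and KLF5 (-0.29 to 0.65) in serum, and GATA2 (-0.054 to 0.79), GATA3 (-0.078 to 0.33) and TFAP2C (-0.093 to 0.30) in serum-free, so no direction is read from the sex of the embryo. Few counts limit CDX2, EOMES and ELF3.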
